A study of Mus musculus with 6 samples.

Results

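The genes described are the immediate early genes of the EGR, IER and NR4A families (Egr1, Egr2, Egr3, Ier2, Ier3, Ier5, Nr4a1, Nr4a2 and Nr4a3) together with Zfp36, which encodes the mRNA-decay factor tristetraprolin. They were taken by symbol and are 10 of the 26529 genes listed. RNA of C57BL/6 wild-type mouse cells was sequenced in 6 libraries, 3 labelled osteoclasts (OC) and 3 labelled osteoclast precursors (OCP). The labels give bone marrow-derived macrophages as the source of both groups and 8 weeks as the age of the mice. Cells of both groups were treated with 20 ng/ml of M-CSF, a macrophage growth factor, and 10 ng/ml of RANKL, which induces osteoclasts. OC cells are labelled as day 6 and OCP cells as day 3, so stage and time in culture cannot be told apart. No label gives a sort for multinucleated cells or separate mice or cultures for the replicates, so the p-values reflect the spread among these libraries alone, and that spread may be technical. Values are RPKM, reads scaled by gene length and by the library's total of reads assigned to genes, and each ± is an SD over the 3 libraries of a group.

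Immediate early genes are transcribed within minutes of a stimulus and need no new protein for it. Signals through ERK act on serum response factor (SRF), which binds CArG boxes together with ternary complex factors such as ELK1. Signals through cyclic AMP or calcium act on CREB at sites with the core TGACG, and NF-κB is activated by the RANKL receptor. EGR proteins are zinc finger transcription factors, NR4A proteins are orphan nuclear receptors, and many of the transcripts are short-lived because of AU-rich elements in their 3′ UTRs. Tristetraprolin binds such elements, with TATTTAT in DNA letters as its preferred heptamer, and speeds the decay of mRNAs for cytokines in mouse macrophages.

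The cells' labels were checked first. All 16 tested osteoclast markers were lower in OC, with summed levels between 2997 and 3095 RPKM in OC and between 5520 and 5667 RPKM in OCP. Ctsk, the collagen-degrading cathepsin K, averaged 1711 ± 25.0 RPKM in OC and 3249 ± 108 RPKM in OCP, and Acp5, the tartrate-resistant acid phosphatase, 338 ± 13.0 RPKM in OC and 642 ± 26.8 RPKM in OCP. The markers thus go against the labels, and whether the labels were exchanged was not tested. All directions below are those of the libraries labelled OC relative to the libraries labelled OCP, and would turn if the labels were exchanged. Of 13 tested macrophage and monocyte markers, 10 were higher and 3 lower in OC, against 23.5% and 32.1% of all tested genes. The most abundant, Lyz2, averaged 7197 RPKM in OC and 4080 RPKM in OCP, the largest rises on log2(RPKM + 1) were those of Cx3cr1 and Mrc1, and the largest falls those of Cd68 and Csf1r. The 6 tested neutrophil markers were all higher in OC (summed list 159 to 165 RPKM in OC, 74.2 to 81.4 RPKM in OCP), led by Lcn2 and Csf3r, while 8 markers of that list, Mpo and Elane among them, lay under the filter used for testing. Mpo, which marks neutrophil granules, averaged 0.153 RPKM in OC and 0.0891 RPKM in OCP, and Retnlg was listed at 0 in all 3 OC libraries and at 0, 0 and 0.0895 RPKM in OCP. Ltf, also under the filter and named after its values were seen, averaged 1.08 RPKM in OC and 0.550 RPKM in OCP. It was called higher with no filter (limma adjusted p = 0.0055) and by voom (adjusted p 4.5e-05). The other listed neutrophil markers under the filter were not called with no filter. Markers of stromal, endothelial, T and NK, B and dendritic cells summed to at most 5.14 RPKM per list in any library. Of 3 tested T and NK cell markers, 2 were called higher in OC. The other listed markers of these cells lay under the filter, and Cd3d, Cd3e, Cd3g and Cd8a had at most 2 reads in any library. Lck, a kinase of T cells, had 1.22, 1.27 and 1.18 RPKM in OC, against 0.113, 0.206 and 0.0743 RPKM in OCP (limma adjusted p 2.2e-05), and its groups did not overlap. Il7r averaged 1.42 RPKM in OC and 0.973 RPKM in OCP (limma adjusted p = 0.045, a call lost in 8 of 14 alternatives, among them those without each OC replicate and without OCP replicate 2 or 3, with adjusted p 0.052 to 0.14). Trac, the T cell receptor chain, averaged 1.26 RPKM in OC and 1.81 RPKM in OCP and was not called (limma adjusted p = 0.078), but was called lower in 4 of 14 alternatives, 2 of them without OC replicate 1 or OCP replicate 2 (adjusted p 0.025 and 0.040). The single tested B cell marker, Vpreb1, was lower (2.91 RPKM in OC, 3.80 RPKM in OCP), a call lost in the voom fit and without OCP replicate 3 (adjusted p 0.069 and 0.055). Ighm, a B cell marker under the filter named after its values were seen, went the other way (0.996 RPKM in OC, 0.478 RPKM in OCP). It was called higher with no filter (limma adjusted p = 0.0029) and by voom (adjusted p = 0.00054). The other listed B cell markers under the filter were not called with no filter. The single tested stromal, endothelial and dendritic markers, Acta2, Kdr and Batf3, were not called. Platelet factor Pf4 averaged 89.2 RPKM in OC and 36.1 RPKM in OCP, with the other 7 listed erythroid and megakaryocyte markers under the filter. The part of these cell differences in the values below was not tested, and in bulk RNA fewer cells of a type and less RNA per cell cannot be told apart.

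The NR4A promoters are shown because all 3 hold the same motif 4 times, while the calls of the genes differed. All 3 genes lay under the filter used for testing. In the fits that keep low genes, 2 of them were called higher in OC and 1 was not called. With no filter, both calls were lost on leaving out certain single libraries. RefSeq promoter windows on GRCm38.p6 were found for 7 of the 10 genes, in 11 windows (5 of Egr2). In the 250 bases before the start site, 12 motifs were searched on both strands, and the motifs, counts and stretches described here were chosen after the matches had been seen, so the shares are descriptions. The CREB core TGACG, counted as TGACG or its reverse complement CGTCA, stood 4 times in each of the 3 NR4A windows. It also stood 2 times, at the same sites, in each of 3 overlapping windows of Egr2. The windows of Ier3, Ier5 and Zfp36 held none. Of 32851 windows of mouse genes, 17.8% held it at least once and 0.137% at least 4 times. All 4 copies in Nr4a1 were part of the longer TGCGTCA, which overlaps TGACG on the other strand and which 1.75% of windows held. The Nr4a1 window lies inside the longer GENCODE gene, so any start site further upstream in Nr4a1 has no window here. Capitals mark TGACG or CGTCA in the stretches before Nr4a1 (chr15:101266596-101266845, plus strand), Nr4a2 (chr2:57124004-57124253, minus strand) and Nr4a3 (chr4:48045055-48045152, plus strand, 3 of its 4 copies).
Nr4a1: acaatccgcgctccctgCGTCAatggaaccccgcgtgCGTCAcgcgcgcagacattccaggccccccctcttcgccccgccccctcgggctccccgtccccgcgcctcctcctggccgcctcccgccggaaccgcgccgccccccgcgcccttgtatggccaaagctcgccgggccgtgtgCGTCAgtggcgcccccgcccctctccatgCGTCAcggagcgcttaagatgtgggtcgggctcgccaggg
Nr4a2: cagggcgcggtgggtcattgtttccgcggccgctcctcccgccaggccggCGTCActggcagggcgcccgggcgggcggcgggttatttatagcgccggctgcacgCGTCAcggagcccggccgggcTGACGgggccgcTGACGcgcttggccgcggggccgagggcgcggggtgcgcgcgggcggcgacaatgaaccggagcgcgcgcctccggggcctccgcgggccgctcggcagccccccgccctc
Nr4a3: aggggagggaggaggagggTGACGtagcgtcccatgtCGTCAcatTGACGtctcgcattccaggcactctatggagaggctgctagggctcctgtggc

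The Ier3 promoter is shown because Ier3 had the greatest difference of the 10 genes. The NF-κB pattern searched needs GGG at its start or CCC at its end. Its only match in Ier3 began 92 bases before the start site, and 3.9% of windows held a match. Looser NF-κB forms were not searched. A CArG box stood 58 bases before the RefSeq start site of Zfp36, inside the longer exon that the deposited gene model gives this gene, and in 4 of the 5 windows of Egr2, of which 3 hold the same box. Of all windows, 1.47% held a CArG box. The EGR site GCGGGGGCG occurred in the windows of Zfp36 and Nr4a1 and in 2.57% of all windows. The other EGR form searched, GCGTGGGCG, was found in none of the 11 windows and in 0.536% of all. Neither were the full CREB site TGACGTCA (1.55% of all windows) and the AP-1 sites TGACTCA or TGAGTCA (4.46%). CCAAT occurred in the windows of Ier5, Ier3 and Egr2 and in 33.8% of all. CCGGAA occurred in Egr2, Nr4a1 and Zfp36 (12.0% of all windows), TATAAA in Nr4a2 (12.4%) and CACGTG in Egr2 (6.02%). Capitals mark the NF-κB motif in Ier3 (chr17:35821463-35821683, plus strand) and the CArG boxes in Zfp36 (chr7:28379267-28379296, minus strand) and Egr2 (chr10:67537787-67537816, plus strand).
Ier3: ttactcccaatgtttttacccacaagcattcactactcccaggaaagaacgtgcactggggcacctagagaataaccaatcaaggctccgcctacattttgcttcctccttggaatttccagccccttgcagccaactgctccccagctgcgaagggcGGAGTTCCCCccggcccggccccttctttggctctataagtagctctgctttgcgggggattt
Zfp36: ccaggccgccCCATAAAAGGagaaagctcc
Egr2: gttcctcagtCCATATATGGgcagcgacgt

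The tristetraprolin heptamer TATTTAT was counted in the 3′ UTR of all 10 genes (GENCODE M21, the transcript with the longest 3′ UTR). Ier3 held 4 copies, Zfp36 itself 3, Nr4a3 2 and Nr4a2 1, and the other 6 genes held none. At least 1 copy was present in 27.6% of 21020 genes. Among genes whose 3′ UTR was within 20% of the same length, 0.601% had as many copies as Ier3, 1.3% as many as Zfp36, 23.4% as many as Nr4a3 and 31.9% as many as Nr4a2. The 30 bases with most copies are shown, with TATTTAT in capitals, for Ier3 (chr17:35822484-35822513, plus strand) and Zfp36 (chr7:28376958-28376987, minus strand), the pair with the highest counts.
Ier3: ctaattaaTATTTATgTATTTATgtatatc
Zfp36: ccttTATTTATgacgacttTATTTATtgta

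Of the 10 genes, 5 reached at least 1 RPKM in at least 3 libraries and were tested. Ier3, Ier5, Zfp36 and Egr1 were higher in OC (limma on log2(RPKM + 1), Benjamini-Hochberg adjusted p under 0.05 over 12301 genes), Ier2 was not called, and none was lower. Among all tested genes, 23.5% were higher and 32.1% lower in OC (2889 and 3954 genes), and with TMM factors the balance turned, with 3471 higher and 3224 lower. The median log2 fold change was 1.19 over the 5 tested genes and -0.05 over all tested genes, where the 5th and 95th percentiles were -0.60 and 0.84. The other 5 genes, Egr2, Egr3, Nr4a1, Nr4a2 and Nr4a3, lay under the filter and were read from fits that keep low genes. With no filter, 6 of the 10 genes were higher in OC and none lower, against 12.2% and 14.0% of 26529 genes. A voom fit on whole reads recovered from the RPKM also gave 6 higher and none lower of 9 genes tested, against 26.5% and 25.7% of 15802 genes. All OC libraries lay above all OCP libraries for 6 of the 10 genes, as for 18.6% of all listed genes, and for 4 of the 5 tested genes, as for 26.7% of tested genes.

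**Figure D1:**
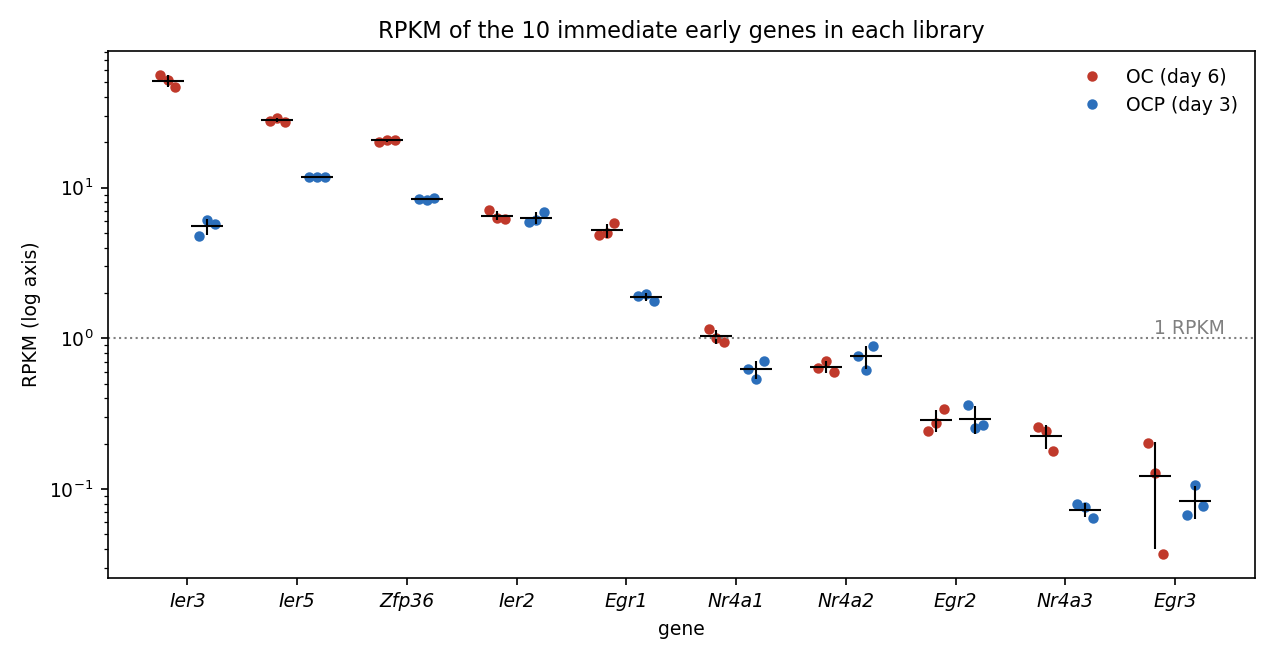
RPKM of each gene (log axis) in the 3 OC and 3 OCP libraries, with the group mean as a horizontal bar and the SD as a vertical line; the dotted line is the 1 RPKM used by the filter. The OC points lie above the OCP points for Ier3, Ier5, Zfp36, Egr1, Nr4a1 and Nr4a3 and overlap them for Ier2, Nr4a2, Egr2 and Egr3.

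The IER genes code for small stress- and growth factor-induced proteins and include the most abundant gene of the set in each group. Ier3 (also known as IEX-1), a regulator of cell survival that is phosphorylated by ERK, lies on chromosome 17 (35821684 to 35822923, GRCm38, plus strand). It had 56.2, 51.6 and 46.6 RPKM in OC replicates 1, 2 and 3, against 4.74, 6.06 and 5.78 RPKM in OCP replicates 1, 2 and 3. Every OC library was far above every OCP library. The ratio of means was 9.31, the log2 fold change 3.01 (SE 0.09) and the adjusted p of the limma fit 2.3e-07. On log2(RPKM + 1), this was the 48th largest log2 fold change among the 12301 tested genes.

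Ier5, an activator of heat shock factor 1, is modelled in the deposited table as 1 exon on chromosome 1 (155096361 to 155099636, minus strand). It had 27.8, 29.2 and 27.5 RPKM in OC, against 11.8, 11.9 and 11.8 RPKM in OCP. The groups were well separated and the OCP libraries nearly equal. The log2 fold change was 1.19 (SE 0.05) and the limma adjusted p 5.4e-07. Ier2, a nuclear protein whose gene lies on chromosome 8 (84661331 to 84662852, minus strand), is the other IER gene described. It had 7.06, 6.29 and 6.24 RPKM in OC and 5.88, 6.11 and 6.94 RPKM in OCP, and the groups overlapped. Its log2 fold change was 0.04 (95% interval -0.13 to 0.22, limma adjusted p = 0.64), an interval that leaves room for small differences in either direction.

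Zfp36 lies on chromosome 7 (28376784 to 28380253, minus strand), and the deposited gene model counts all 3470 bases of that span. It had 20.2, 20.8 and 20.7 RPKM in OC, against 8.42, 8.32 and 8.49 RPKM in OCP. All OC values were above all OCP values, with very little spread in either group. The log2 fold change was 1.20 (SE 0.04, limma adjusted p 4.4e-07). The gene shares 125 exonic bases with the antisense gene Gm44710, and whether reads were counted by strand is not given in the sources used here.

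Egr1, the best known zinc finger factor of the EGR family, lies on chromosome 18 (34859823 to 34864984, plus strand). It had 4.82, 4.97 and 5.86 RPKM in OC, against 1.92, 1.97 and 1.76 RPKM in OCP. The lowest OC library was above the highest OCP library. The log2 fold change was 1.11 (SE 0.08, limma adjusted p 1.5e-05) and the ratio of means 2.77. Egr2, a relative with a role in nerve myelination, lies on chromosome 10 (67535475 to 67542188, plus strand). It had 0.244, 0.275 and 0.340 RPKM in OC and 0.363, 0.252 and 0.264 RPKM in OCP, with overlapping groups. The read-based log2 fold change was 0.01 (95% interval -0.56 to 0.59, adjusted p = 0.98 by voom). Egr3 was the least expressed of the EGR genes, with 10, 6 and 2 reads in OC replicates 1, 2 and 3 and 4, 6 and 4 reads in OCP replicates 1, 2 and 3. At this depth no difference was detectable (log2 fold change 0.05 with no filter, limma adjusted p = 0.62, and 0.21 with SE 0.33 at a pseudocount of 0.1), and the gene fell below the 10-read mean needed for the voom fit. The deposited Egr3 model on chromosome 14 (70077445 to 70080157) spans only part of the GENCODE gene (70077203 to 70082614), so reads outside it were not counted for Egr3.

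The NR4A receptors are transcription factors that can act without a ligand and are controlled largely through their amount. All were near or under 1 RPKM. Nr4a1 (Nur77), on chromosome 15 (101266846 to 101274792, plus strand), had 1.15, 0.998 and 0.944 RPKM in OC, against 0.624, 0.540 and 0.704 RPKM in OCP. The groups did not overlap. The log2 fold change was 0.32 with no filter (limma adjusted p = 0.018) and 0.77 (SE 0.20) in the voom fit (adjusted p = 0.0025). With no filter the call was lost without OC replicate 1 (adjusted p = 0.0502) or OCP replicate 2 (adjusted p = 0.054), and by voom it was kept without any 1 library. The deposited Nr4a1 model spans only part of the GENCODE gene (101254269 to 101274795), so reads outside it were not counted for Nr4a1.

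Nr4a3 (Nor1), on chromosome 4 (48045153 to 48086447, plus strand), had 0.258, 0.241 and 0.180 RPKM in OC, against 0.0793, 0.0757 and 0.0636 RPKM in OCP. These values stood for 54, 48 and 41 reads in OC and 20, 18 and 14 reads in OCP, and the groups did not overlap. The voom log2 fold change was 1.62 (SE 0.32, adjusted p = 0.00013). On log2(RPKM + 1) with no filter, where the pseudocount outweighs such low values, it was 0.19 (limma adjusted p = 0.023). That call was lost on leaving out OC replicate 1 or 2 or any OCP replicate (adjusted p 0.053 to 0.074), while by voom it was kept in all 6 such fits. Nr4a2 (Nurr1), on chromosome 2 (57106830 to 57124003, minus strand), had 0.633, 0.712 and 0.601 RPKM in OC and 0.766, 0.620 and 0.892 RPKM in OCP. Its groups overlapped, with a voom log2 fold change of -0.17 (95% interval -0.54 to 0.19, adjusted p = 0.44).

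Recovered read numbers need care. Of the recovered values between 2 and 20 reads in the whole table, 84.6% were even, as were all 6 values of Egr3. Of values above 1000 reads, 53.6% were even, but all 6 values of Ier5, which lay in that range, were even too. Of values above 100 and up to 1000 reads, 61.5% were even. All 6 values of Egr1, at 290 to 1002 reads and mostly in this lower range, were also even. Odd values occurred in Ier2, Ier3 and Zfp36. The sources used here do not give whether mates of a pair were counted separately. The reads of any gene, Egr3 and Nr4a3 among them, may therefore not be independent fragments. This limit applies to the voom SEs and p-values and to the reads assigned per library.

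**Figure D2:**
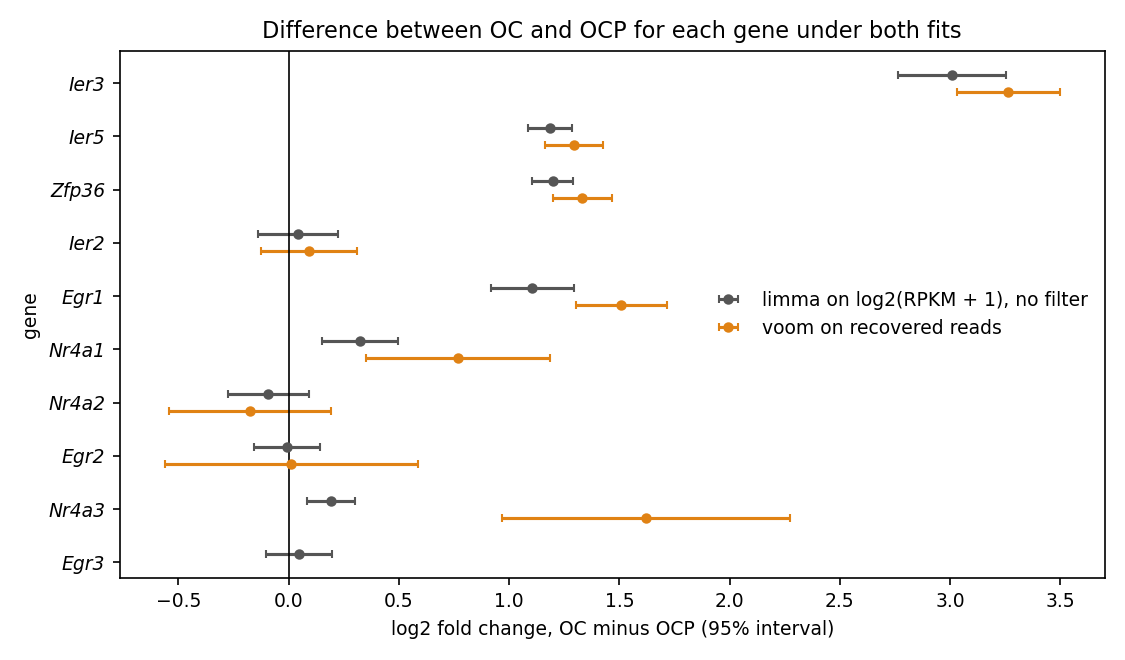
Log2 fold change (OC minus OCP) of each gene with its 95% interval, from limma on log2(RPKM + 1) with no filter (grey) and from voom on recovered reads (orange, not fitted for Egr3). Both intervals lie above 0 for Ier3, Ier5, Zfp36, Egr1, Nr4a1 and Nr4a3; the fits are furthest apart for Nr4a3, at 0.19 and 1.62.

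The order of the levels changed with the group. In OC, Ier3 was highest (46.6 to 56.2 RPKM), followed by Ier5, Zfp36, Ier2, Egr1, Nr4a1 and Nr4a2, each with a range clear of its neighbour's. Only the 3 lowest genes, Egr2, Nr4a3 and Egr3, overlapped with their neighbours in that order. In OCP, Ier5 was highest (11.8 to 11.9 RPKM), followed by Zfp36, then by Ier2 and Ier3, whose ranges overlapped. Nr4a2 and Nr4a1 overlapped in OCP, as did Egr3 and Nr4a3. Of the summed RPKM of the 3 IER genes, Ier3 made up 58.0% to 61.7% in OC and 21.2% to 25.2% in OCP. Ier5 made up 30.6% to 34.2% in OC and 48.2% to 52.6% in OCP. Egr1 made up 91.5% to 94.0% of the EGR sum in OC and 81.7% to 84.6% in OCP. In the NR4A sum, Nr4a1 held the largest share in OC (51.1% to 56.4%), against 42.4% to 43.7% in OCP. Nr4a2 held 31.0% to 36.5% in OC and the largest share in OCP, 50.2% to 53.7%.

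Ratios between related genes within a library do not depend on library scaling, and 9 pairs were compared. In 8 of them the OC and OCP libraries did not overlap, each with a two-sided exact permutation p of 0.10, the smallest that 3 against 3 can give, and 0.11 after adjustment over the 9 pairs. No pair can therefore pass 0.05 by this exact test, and no other test was run on the ratios. Ier3 was 7.46 to 8.20 times the RPKM of Ier2 in OC and 0.807 to 0.992 times in OCP. Nr4a2 was 0.549 to 0.714 times Nr4a1 in OC and 1.15 to 1.27 times in OCP. The gene of this pair with the higher RPKM thus differed between the groups. That order rests on the exon lengths of the deposited models, 2474 bases for Nr4a1 and 4059 bases for Nr4a2. In OC replicates 1, 2 and 3, Nr4a1 had 100, 82 and 89 reads and Nr4a2 90, 96 and 93 reads. Egr3 to Egr1 was the pair that overlapped (exact permutation p = 0.20).

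Paralogs and partners of these proteins ranged from no called difference to a large one. Zfp36l1, a paralog of tristetraprolin that also promotes mRNA decay, had 14.9, 15.6 and 16.2 RPKM in OC, against 2.26, 1.76 and 2.35 RPKM in OCP. Its groups were far apart (log2 fold change 2.41, SE 0.08, limma adjusted p 2.9e-07). The RPKM of Zfp36 was 1.28 to 1.35 times that of Zfp36l1 in OC and 3.61 to 4.74 times in OCP. Zfp36l2, the other listed paralog, averaged 9.91 ± 0.571 RPKM in OC and 10.3 ± 0.458 RPKM in OCP and was not called. Nab2, a corepressor that binds EGR proteins, averaged 13.6 ± 0.999 RPKM in OC and 10.9 ± 0.699 RPKM in OCP (log2 fold change 0.29, limma adjusted p = 0.0078). Its ratio to Egr1 was 2.14 to 3.02 in OC and 5.28 to 6.43 in OCP. Of 12 tested paralogs and partners, 7 were higher and 1, the kinase Mapkapk3, lower in OC, against 23.5% and 32.1% of all tested genes. The median log2 fold change of the list was 0.23. Mapkapk3 lost its call without OC replicate 2 or OC replicate 3 (adjusted p 0.052). On log2(RPKM + 1), the second largest rise of the list was that of Cnot7, a deadenylase of the CCR4-NOT complex that tristetraprolin recruits (log2 fold change 0.39).

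**Figure D3:**
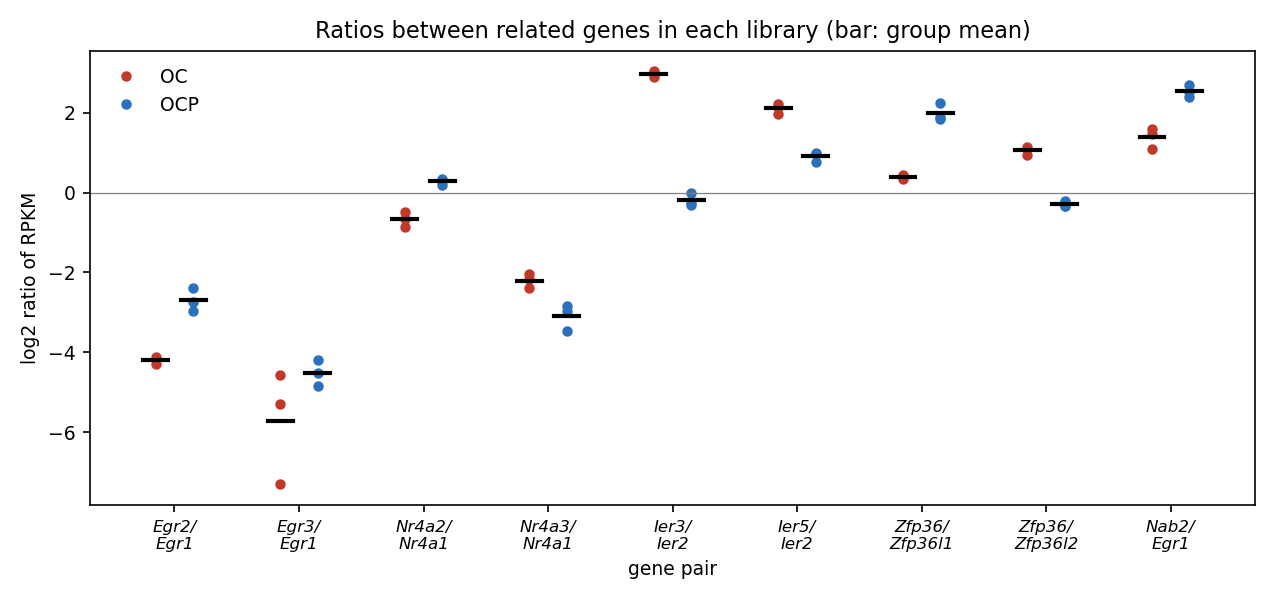
Log2 ratio of RPKM between 2 related genes in each of the 3 OC and 3 OCP libraries, with bars at group means. Only Egr3/Egr1 overlaps between the groups; the widest gap is in Ier3/Ier2, whose mean log2 ratio is 2.98 in OC and -0.20 in OCP.

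The transcripts of the factors and kinases above these genes had small differences in both directions. Of 11 tested SRF, ternary complex and CREB factors, 4 were higher and 3 lower in OC (median 0.16). The shares over all tested genes were 23.5% higher and 32.1% lower in OC. Srf averaged 7.28 ± 0.471 RPKM in OC and 9.44 ± 0.507 RPKM in OCP (log2 fold change -0.33, limma adjusted p = 0.0027). Its partner Elk4 averaged 2.5 ± 0.0938 RPKM in OC and 1.46 ± 0.131 RPKM in OCP. Among the CREB coactivators, Crtc2 averaged 7.54 RPKM in OC and 5.18 RPKM in OCP, and Crtc1 1.07 RPKM in OC and 1.52 RPKM in OCP, both called. Of 14 tested kinases and GTPases of the ERK cascade, 6 were higher and 2 lower (median 0.09), against the same shares of all tested genes. Mapk3, which encodes ERK1, averaged 30.5 ± 0.735 RPKM in OC and 20.8 ± 1.10 RPKM in OCP. Map2k2 averaged 23.9 RPKM in OC and 32.8 RPKM in OCP, and Hras 12.6 RPKM in OC and 16.6 RPKM in OCP. All of these were called, with absolute log2 fold changes well under that of Egr1.

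Other immediate early genes went in both directions. Of 45 tested, 26 were higher and 10 lower in OC, against 23.5% and 32.1% of all tested genes. Their median log2 fold change was 0.26. The largest rises on log2(RPKM + 1), a scale that understates those of low genes, were those of Rgs1, a regulator of G protein signalling with 11.1 ± 0.424 RPKM in OC and 0.198 ± 0.0332 RPKM in OCP, and Atf3, a stress-induced transcription factor with 123 ± 7.18 RPKM in OC and 19.8 ± 1.03 RPKM in OCP. By ratio of means, Arc (8.56) and Fosb (7.10, under the filter), both named after their values were seen, stood above Atf3 (6.20). The largest falls were those of Sphk1, a sphingosine kinase with 1.52 RPKM in OC and 4.47 RPKM in OCP, and Cyr61, a matricellular protein with 0.527 RPKM in OC and 1.77 RPKM in OCP. Fos, an SRF target like Egr1 that was picked for this role after its values had been seen, averaged 14.3 ± 0.553 RPKM in OC and 10.6 ± 0.425 RPKM in OCP (log2 fold change 0.40, limma adjusted p = 0.00042). Heat shock and dissociation stress genes, which handling can induce together with immediate early genes, had 4 higher and 4 lower of 12 tested (median -0.06). The same shares of all tested genes apply to this list. Hspa5 averaged 855 RPKM in OC and 390 RPKM in OCP and Hspa1b 15.4 RPKM in OC and 7.74 RPKM in OCP. Hspe1 averaged 373 RPKM in OC and 528 RPKM in OCP and Hspd1 262 RPKM in OC and 321 RPKM in OCP. The part of handling in the 10 genes' values was not tested.

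The mRNAs that tristetraprolin is known to bind were mostly higher in OC, as was Zfp36 itself. Of 20 tested, 17 were higher, 2 lower and 1 not called, with a median log2 fold change of 1.63. Among all tested genes, 23.5% were higher and 32.1% lower. Ptgs2, the inducible cyclooxygenase, averaged 228 ± 13.0 RPKM in OC and 1.21 ± 0.247 RPKM in OCP. Csf2, a cytokine for myeloid cells, averaged 54.9 ± 1.5 RPKM in OC and was listed at 0 in all 3 OCP libraries. Csf2 overlaps the antisense gene Gm12223, and whether counting used the strand is not given in the sources used here. Tnf, the cytokine best known as a tristetraprolin target in mouse macrophages and picked for that after its values had been seen, averaged 113 ± 6.50 RPKM in OC and 22.6 ± 0.569 RPKM in OCP. Plau, the urokinase gene, was lower, with 24.0 RPKM in OC and 33.2 RPKM in OCP. Cxcl1 was also called lower (9.12 RPKM in OC, 10.6 RPKM in OCP), a call lost in 10 of 15 alternatives, among them those without each OC replicate and without OCP replicate 2 or 3 (adjusted p 0.070 to 0.13). These lists were chosen with earlier results of the same data known, so their counts are descriptions.

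**Figure D4:**
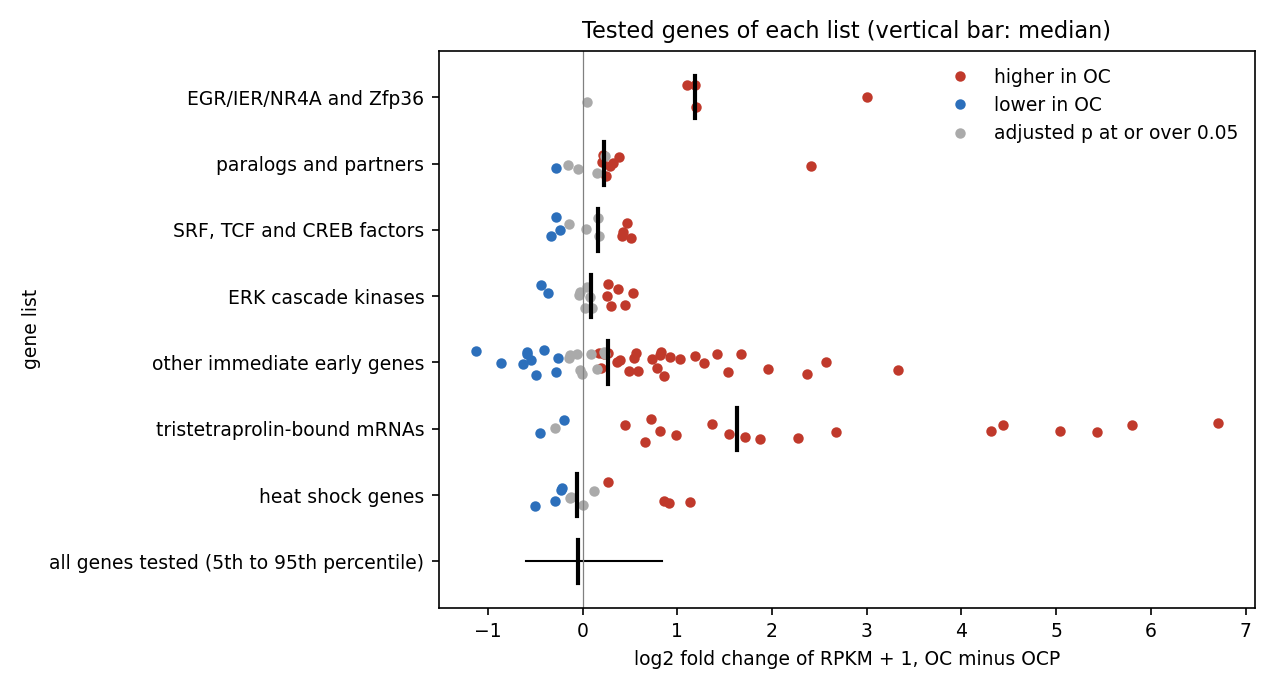
Log2 fold change of RPKM + 1 (OC minus OCP) for the tested genes of 7 lists, 1 point per gene, with the median as a black bar and, in the lowest row, the 5th to 95th percentile of all tested genes (-0.60 to 0.84). The medians are 1.19 for the genes described here, 1.63 for mRNAs bound by tristetraprolin and 0.26 or less for the other 5 lists.

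No library carried the 5 tested genes together. On log2(RPKM + 1), the mean deviation from the group mean over these genes lay between -0.05 and 0.03 in the 6 libraries. Egr1 and Ier3 deviated in opposite directions in OC, where replicate 3 was the highest of its group for Egr1 and the lowest for Ier3. The genes whose pattern over the 6 libraries was most like the mean of the 4 risen genes were Trim25, Rgs1 and the processed pseudogenes Gm4875, Gm15772 and Gm15459 (Pearson r 0.9996 to 0.9999). The 6 points are 2 groups of 3, and 13.9% of 5200 genes with at least 10 RPKM in either group had r above 0.95, so r says little beyond the group difference. Reads of processed pseudogenes cannot be told apart with certainty from those of their parents.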

How the data were processed

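Each of the 6 libraries was made from 2 ug of total RNA with a stranded mRNA kit, per the labels' protocols. Trimmomatic 0.36, STAR 2.5.3a and featureCounts were used, per the submitters' processing notes. The notes name the build GRCh38, but the table's coordinates are those of mouse GRCm38, and 95.8% of its symbols matched GENCODE M21. The deposited values are RPKM made by the authors. RPKM times length gave whole reads for 100% of values within 0.01 reads. From these, 33219178 to 42121216 reads were assigned to genes per library. Read counts of any 2 replicates differed beyond sampling noise, with a chi-square of 5.18 to 21.4 per degree of freedom.

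Testing used genes that reached 1 RPKM in 3 or more libraries, on log2(RPKM + 1) in limma 3.58.1 (R 4.3.3) with trend and robust options, two-sided, with Benjamini-Hochberg adjustment over all tested genes. The pseudocount of 1 understates the change of low genes. Genes under the filter were read from the same fit with no filter and from voom with TMM factors on the recovered reads (mean of at least 10 reads). The limma steps were also run on simulated data in which only better-covered genes were changed. That run does not bear on genes as low as Egr3 and Nr4a3, and no result of it is used here. Alternatives were other pseudocounts, filters and scalings, a replicate block and leaving out each library. Named were all 10 genes and, per list, its 2 greatest rises and 2 greatest falls among called genes, the most abundant marker of other cells and the 5 genes most alike. Genes outside this rule, among them Nab2, Zfp36l2, Mpo and Elane, are named for their roles or, where stated, after their values were seen. For the ERK cascade, 1 gene that the rule names is not reported here. The genes and lists were chosen with earlier results of these data known.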

Additional observations from a re-analysis of the deposited data

How the results depend on the processing

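All 5 tested genes stayed on their side of the threshold in 74 of 74 alternatives, and Ier3, Ier5, Zfp36 and Egr1 kept their direction. Ier2, not called in any, had a log2 fold change of -0.01 without OC replicate 1, against 0.04 with all libraries. The count of 4 genes higher was the same without any 1 library. With a mean of at least 5 RPKM, which drops Egr1 and tests fewer genes, 1645 of all genes were higher in OC in place of 2889. Leaving out 1 library gave 2524 to 2932 genes higher and 3370 to 3784 lower in OC, and 77 to 82 higher and 36 to 42 lower over the 15 companion lists (83 and 42 with all libraries). There were 644 alternatives for 44 other genes, named from the companion lists or for their likeness to the risen genes. Of these, 618 stayed on the same side of the threshold, 22 lost a call, 4 gained one and 0 reversed a called direction. Genes never called count among the 618, and of these Acta2 and Batf3 changed sign in some alternatives.

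With a pseudocount of 1 added before the ratio, the log2 difference between OC and OCP was -1.11 for Egr2/Egr1, -0.42 for Nr4a2/Nr4a1, 2.96 for Ier3/Ier2, -1.22 for Zfp36/Zfp36l1 and -0.82 for Nab2/Egr1, against -1.50, -0.95, 3.17, -1.60 and -1.15 without it. Nr4a3/Nr4a1 reversed, from 0.89 without the pseudocount to -0.13 with it, since 1 RPKM exceeds the level of Nr4a3.

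The replicate numbers are not stated to pair samples, so they were not taken as pairs. Deviations of same-numbered OC and OCP replicates had correlations of -0.11, 0.14 and 0.01, and those of differently numbered ones lay between -0.28 and 0.26. With groups of 3, these correlations cannot show whether samples were paired. With the replicate number as a block, 4 of the 5 tested genes were higher, as without it, and 2827 of all genes were higher and 3851 lower in OC.

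Depth limits Egr3, with at most 10 reads per library, and the intervals of Egr2 and Nr4a2. Groups of 3 allow no exact p under 0.10.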
